A study of Mus musculus with 10 samples.

Results

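The 32 genes described here were listed as genes of the cells that wrap blood vessels, namely vascular smooth muscle cells and pericytes. Several of them are also expressed in other cells of the heart, as said for each below. The rule that picks them is a list of names with no measured value in it, drawn up when earlier results of these data were known, and 31 of them had a row among the 24160 gene rows of the table. Of these, 30 were tested, since Abcc6, a transporter gene, was listed at 0 in all 10 libraries. The name Pln1 matched no row and was not analysed here. By role, 13 genes were placed in a contractile group, 3 with intermediate filaments and the Z-disc, and 10 with pericytes. The other 5 were placed with Notch, cGMP, adhesion and neurotrophin signalling. The contractile group includes Myocd, a regulator of contractile genes, and Flna, an actin crosslinker of most cell types.

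The libraries are poly(A) RNA-seq of mouse left ventricle, taken at its posterior wall. The compared groups are 6 libraries from MC4R-/- mice, which lack the melanocortin 4 receptor, and 4 libraries from WT mice. All mice were C57BL6/J, aged 30 weeks, housed at 24 °C and bred from heterozygous parents. MC4R is a brain receptor that restrains feeding, and its loss causes obesity in mice. The sources used here do not say how the allele was made. The labels number the libraries as replicates without stating that each is a separate mouse, so p-values speak only of the spread among these samples, which may be technical. The tissue holds many cell types, and fewer cells of a type cannot be told apart from less RNA per cell.

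Smooth muscle cells of arteries set vessel width by sliding actin along myosin, and many of their contractile genes are switched on together by serum response factor (SRF) with its coactivator myocardin at a DNA element called the CArG box. Pericytes sit on capillaries, where PDGF from endothelial cells acts on their PDGF receptor beta, and Notch3 maintains mural cells on arteries. In the heart, pericytes are abundant along the capillaries between cardiomyocytes, whereas smooth muscle lies around larger vessels.

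Values below are normalized counts, that is read counts scaled by the authors' size factor of the library, and 1 read was worth 0.871 to 1.03 normalized counts in the libraries other than WT replicate 3, where it was worth 1.38. The libraries held 4145033 to 6425785 reads. Fold changes are log2(normalized count + 1) differences, MC4R-/- minus WT, with standard errors from limma over 14611 tested genes, and errors of levels are SDs with n = 6 MC4R-/- and n = 4 WT. A gene was called when its Benjamini-Hochberg adjusted p fell under 0.05. Mc4r itself had 4 reads over the MC4R-/- libraries and 2 over the WT libraries, too few to check the genotype. Cardiomyocyte markers, most of them shared by atria and ventricles, summed to 444453 to 503630 in MC4R-/- and 467454 to 516189 in WT. WT replicate 2 stood apart with summed lymphocyte markers of 371 (other WT libraries 12.3 to 29.8), and MC4R-/- replicate 5 with summed atrial markers of 3155 (other MC4R-/- libraries 539 to 943). The fit was therefore also run without both.

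Across the whole list, no gene differed between the genotypes at the adjusted threshold. The count was 0 of 30 by limma, where 0.459% of all tested genes were called (0.287% higher and 0.171% lower in MC4R-/-). It was also 0 by edgeR on the recovered reads (0.342% of all genes called) and 0 by DESeq2 (0.835% called), which gave no adjusted p for 4 of the 30. Without WT replicate 2 and MC4R-/- replicate 5 the limma count stayed at 0, with 1.15% of all genes called. At an unadjusted p under 0.05, limma listed 5 of 30 genes, or 16.7%, against 9.6% of all tested genes, and edgeR also 5 of 30, against 10.5%. None of the 30 had groups that did not overlap, which was so for 2.28% of all tested genes. The MC4R-/- mean was higher for 15 genes and lower for 15 on the log2 scale, with a median log2 fold change of 0.01 against -0.01 over all tested genes. The 95% interval of the fold change lay within 1.5-fold either way for 24 of the 30 genes and within 2-fold for 28, the exceptions to the wider bound being Actg2 and Ntrk3.

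**Figure D1:**
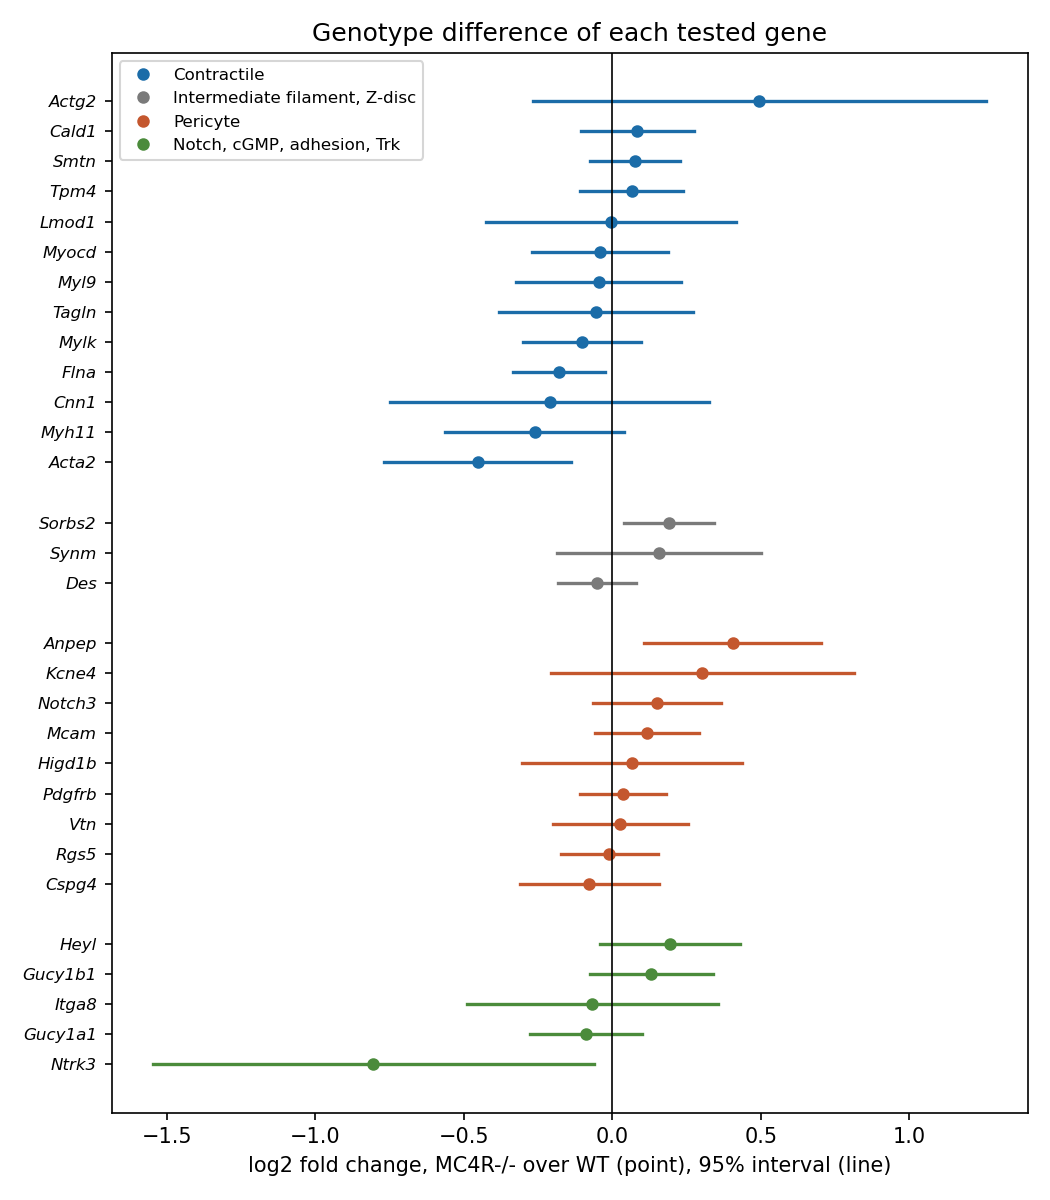
Log2 fold change of each tested gene, MC4R-/- over WT (horizontal axis, points), with its 95% interval from limma (lines), grouped by role and sorted within it. The intervals of Acta2, Flna and Ntrk3 lie below 0 and those of Sorbs2 and Anpep above 0 before adjustment, and none of the 30 genes passed the adjusted threshold of 0.05.

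Levels per kilobase of transcript spread widely. Averaged over all 10 libraries, Des led with 3704 normalized counts per kilobase, followed by Rgs5 with 1270 and Sorbs2 with 581. Des (desmin) and Sorbs2 are also cardiomyocyte genes, so their level here is not a measure of vessel cells. Among genes of the contractile group, Tpm4 (439) and Acta2 (273) were highest per kilobase. Of the lowest, Actg2 stood at 4.01 and Ntrk3 at 0.353. The Ntrk3 value depends on the transcript length used, 19703 bases against 1333 for Actg2. Before division by length, Ntrk3 averaged 6.93 normalized counts and Actg2 5.34. Between the highest and the lowest genes, those from Mcam (127) to Vtn (106) lay close together, and their order is not firm.

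**Figure D2:**
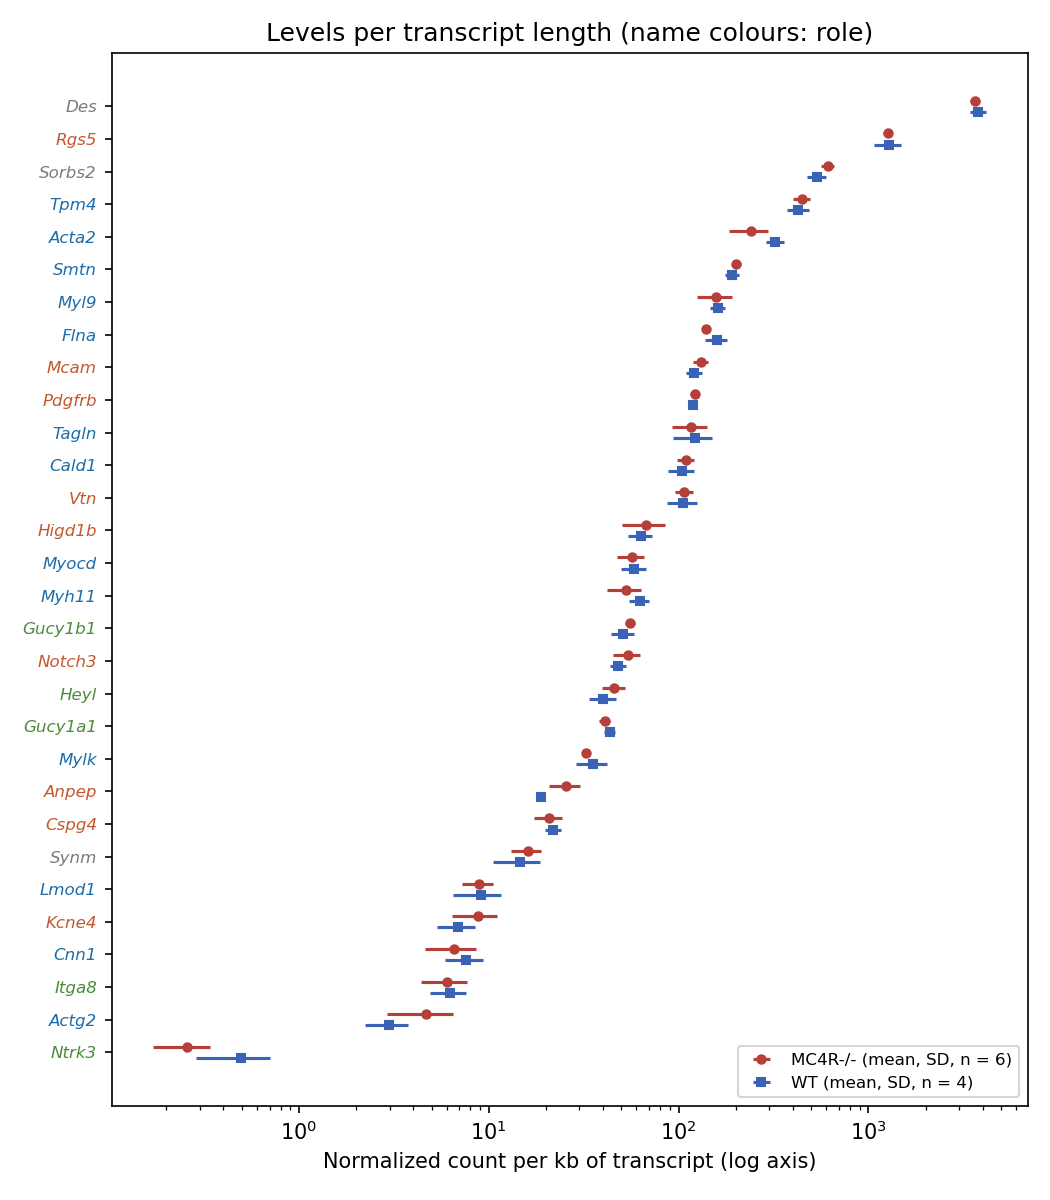
Mean normalized count per kilobase of transcript (log axis) for 30 genes, with SD, MC4R-/- (circles, n = 6) above WT (squares, n = 4), and gene names coloured by role. Des and Rgs5 lead at 3704 and 1270 per kilobase over all libraries, and Ntrk3 is lowest at 0.353, with a transcript length of 19703 bases.

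In the contractile group none of 13 genes was called by limma. The means were higher in MC4R-/- for 4 genes and lower for 9, with a median log2 fold change of -0.05, which ran from -0.14 to 0.02 when each library was left out in turn and turned above 0 without MC4R-/- replicate 4 (0.00729) and without WT replicate 4 (0.02). At an unadjusted p under 0.05 there were 2 lower genes, Acta2 and Flna, by limma and also 2 by edgeR.

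Acta2 (chromosome 19 from 34240336 to 34255585, GRCm38.p6), the actin of smooth muscle, had 408, 472, 697, 407, 527 and 414 in the MC4R-/- libraries, against 562, 699.6, 644 and 727 in the WT libraries. Of the MC4R-/- libraries 5 of 6 lay below the lowest WT library, while replicate 3 lay within the WT range. The means were 487 ± 113 in MC4R-/- and 658 ± 73.0 in WT. The log2 fold change was -0.45 ± 0.14 (95% interval 0.587-fold to 0.908-fold), with an unadjusted limma p of 0.00852 and a Benjamini-Hochberg adjusted p of 0.283, so Acta2 did not pass. The call depended on MC4R-/- replicate 3. That was the highest MC4R-/- library for Acta2, so leaving it out had to lower the fold change and is no separate support for a difference. Without MC4R-/- replicate 3, Acta2 had a log2 fold change of -0.56 ± 0.09 and a limma adjusted p of 0.00449, in a fit that called 0.301% of all genes. Leaving out each of the 10 libraries in turn gave limma adjusted p-values of 0.00449 to 0.465. With all libraries edgeR gave an adjusted p of 0.158 and DESeq2 0.0826.

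The actin sequences bear on how surely the Acta2 and Actg2 rows can be told apart. Acta2 codes for smooth muscle alpha-actin and Actg2 for smooth muscle gamma-actin. The coding sequence of Acta2 was 83.6% identical to that of Actg2, and the longest run they share was 29 bases. Coding bases 940 to 1029 of Acta2, from GENCODE M21 transcripts, are shown with the same stretch of Actg2 as an example of how the pair differs. Capitals mark the 12 bases of Actg2 that differ from Acta2.

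Acta2: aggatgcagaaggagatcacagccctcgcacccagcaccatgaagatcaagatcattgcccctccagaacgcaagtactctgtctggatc

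Actg2: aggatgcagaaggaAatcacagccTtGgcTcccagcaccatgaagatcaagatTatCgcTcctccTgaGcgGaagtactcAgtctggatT

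The sources used here do not say how reads touching such shared runs, of at most 29 bases in this pair, were assigned. Actg2 also rested on only 3 to 10 reads per library, so its value in particular is uncertain. Actc1, an actin gene among the cardiomyocyte markers, was not compared. The runs it shares with Acta2 are therefore not known here, and the Acta2 value is not cleared of such reads.

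Myh11, the myosin heavy chain of smooth muscle and the partner of that actin, had 328, 305, 423, 238, 408 and 365 in the MC4R-/- libraries, against 358, 384, 418 and 471 in the WT libraries. MC4R-/- replicate 4 was the lowest and WT replicate 4 the highest, and the groups overlapped widely. Its log2 fold change was -0.26 ± 0.14 (95% interval 0.677-fold to 1.03-fold, limma adjusted p 0.611). Flna, filamin A, which crosslinks actin in most cell types, had 1202, 1075, 1203, 1177, 1187 and 1145 in the MC4R-/- libraries, against 1115, 1526, 1373 and 1292 in the WT libraries. The MC4R-/- values were tightly packed, and 3 of the 4 WT libraries lay above them all. The log2 fold change was -0.18 ± 0.08 (limma adjusted p 0.416). Tpm4, a non-muscle tropomyosin, had 900.2, 995, 904, 1134, 870.1 and 893 in the MC4R-/- libraries, against 854, 823, 1088 and 871 in the WT libraries, with groups that overlapped and a difference of 0.07 ± 0.08 in log2 units (limma adjusted p 0.866).

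The other contractile genes had means that differed by less than the larger of the SDs of the groups. Tagln (transgelin, an actin-binding protein) ranged 147 to 260.5 in MC4R-/- and 159.7 to 254 in WT. Myl9, the regulatory light chain of smooth muscle myosin, ranged 120.0 to 228 in MC4R-/- and 166 to 205 in WT. Both were highest in MC4R-/- replicate 3 and lowest in MC4R-/- replicate 4. Mylk, the kinase that phosphorylates that light chain, averaged 255 ± 9.43 in MC4R-/- and 278 ± 52.1 in WT. Cald1, caldesmon, averaged 443 ± 45.6 in MC4R-/- and 419.7 ± 64.8 in WT. Smtn, smoothelin, averaged 683 ± 39.2 in MC4R-/- and 648 ± 54.6 in WT. Limma adjusted p-values of these 5 genes ran from 0.794 to 0.951.

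Promoter sequence was searched for the CArG box, since most contractile genes on the list are textbook targets of SRF, Myl9 among them. The motif was spelled as CC, then 6 bases that are each A or T, then GG, and reads alike on both strands. RefSeq promoter windows of build GRCm38.p6 matched 22 of the 31 genes, giving 26 windows. The 9 genes with no window included Tagln, Myh11, Actg2 and Myocd of the contractile group. The 250 bases before the start used by each window were searched, and these can lie inside the annotated gene. The Flna window (74246485 to 74246784) lay within the gene (74223461 to 74249854). For Acta2, whose window ended at 34255623 and gene at 34255585, most of the bases searched lay within the gene. The motif was in 1 of the 26 windows, that of Myl9, and in 482 of all 32851 windows, or 1.47%. It is printed because it was the match, at chr2:156775214-156775407 on the plus strand, with the 10 bases of the CArG box in capitals and the stretch ending before the annotated start of Myl9.

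Myl9: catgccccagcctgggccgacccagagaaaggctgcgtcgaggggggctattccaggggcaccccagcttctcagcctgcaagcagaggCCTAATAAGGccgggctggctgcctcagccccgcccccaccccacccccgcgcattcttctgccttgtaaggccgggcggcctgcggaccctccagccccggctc

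A match describes letters only, and a window without one says nothing about SRF.

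Lmod1, leiomodin, which nucleates actin filaments, averaged 35.0 ± 6.61 in MC4R-/- and 35.8 ± 10.3 in WT, and Cnn1, calponin, averaged 15.7 ± 4.69 in MC4R-/- and 18.1 ± 4.07 in WT. Myocd, myocardin, which cardiomyocytes also express, averaged 290.3 ± 47.3 in MC4R-/- and 299 ± 45.2 in WT. Actg2 rested on 3 to 10 reads per library and averaged 6.24 ± 2.37 in MC4R-/- and 3.98 ± 1.01 in WT. Its log2 fold change was 0.50 ± 0.37, with a 95% interval of 0.831-fold to 2.39-fold (limma adjusted p 0.732).

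**Figure D3:**
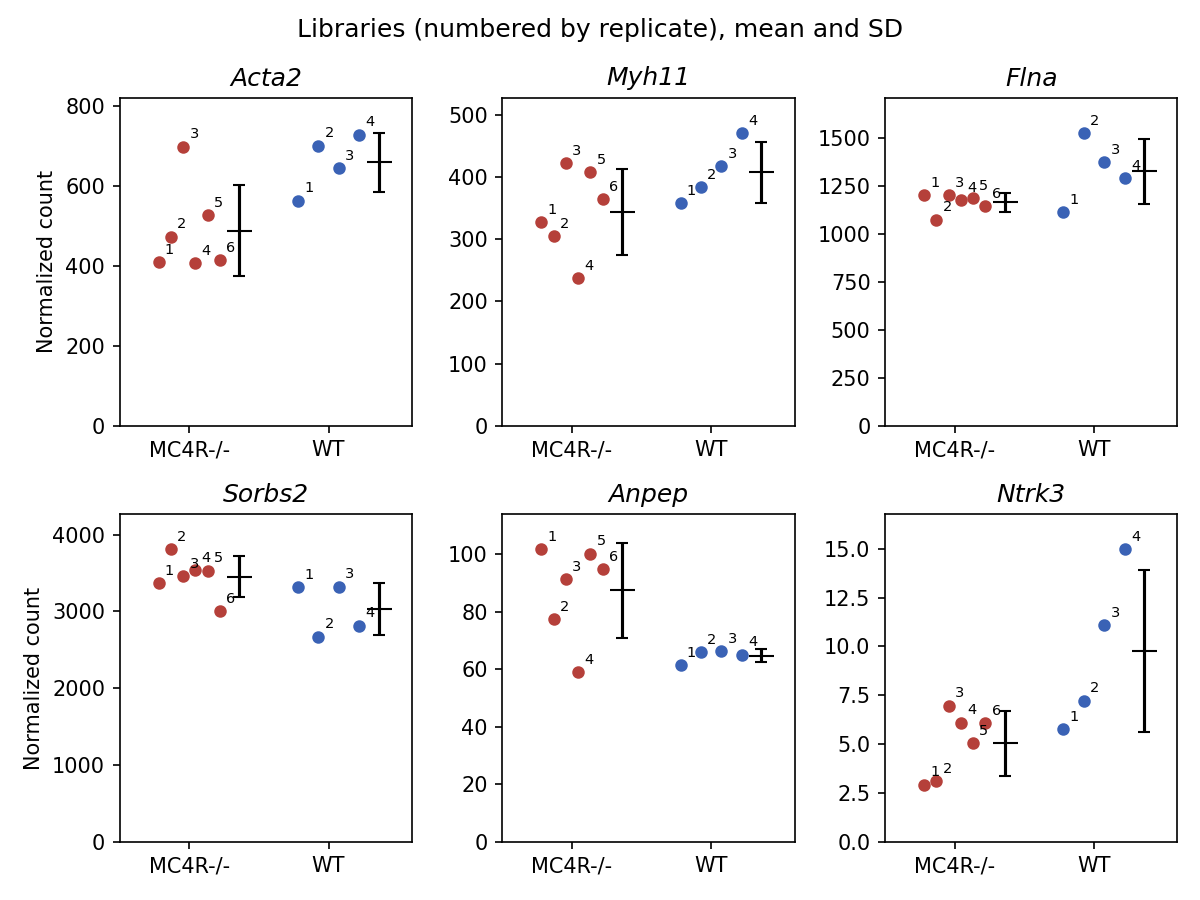
Normalized count in each library (points, numbered by replicate) for Acta2, Myh11, Flna, Sorbs2, Anpep and Ntrk3, with mean and SD, MC4R-/- left of WT. The Acta2 panel shows MC4R-/- replicate 3 at 697 among WT values of 562 to 727, with the other MC4R-/- libraries at 407 to 527.

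MC4R-/- replicate 3 had the highest value of the 6 for 7 of the 13 contractile genes (Acta2, Tagln, Myh11, Cnn1, Lmod1, Myl9 and Flna), against 16.9% of all tested genes without ties. MC4R-/- replicate 4 had the lowest for 8 of 13 (Acta2, Tagln, Myh11, Cnn1, Lmod1, Actg2, Myocd and Myl9), against 19.1% of all tested genes without ties. Relative to the mean of the other MC4R-/- libraries, the 13 genes stood at 0.443 to 1.24 times in replicate 4, with a median of 0.808, at 0.920 to 1.75 times in replicate 3, with a median of 1.04, and at 0.902 to 1.85 times in replicate 5, with a median of 1.07. In replicate 3, 8 of the 13 contractile genes, 8 of the 9 pericyte genes, all 3 filament genes and 4 of the 5 signalling genes stood above 1. The other MC4R-/- libraries had 3 to 9 contractile, 3 to 9 pericyte, 1 to 2 filament and 2 to 4 signalling genes above 1. Of these, replicate 5 had the 9 contractile genes and replicate 1 the 9 pericyte genes. The share of all tested genes above 1 was not computed. MC4R-/- replicate 3 also had the highest summed endothelial, fibroblast and macrophage markers and the lowest summed cardiomyocyte markers, and the part of these in the contractile values was not tested. Summed over the 13 genes, the level was 4864 to 5373 (median 4917) in MC4R-/- and 4857 to 5708 (median 5475) in WT, and the groups overlapped. Flna and Tpm4, neither particular to smooth muscle, were the largest parts of this sum, with means of 1230 and 933 over all 10 libraries.

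**Figure D4:**
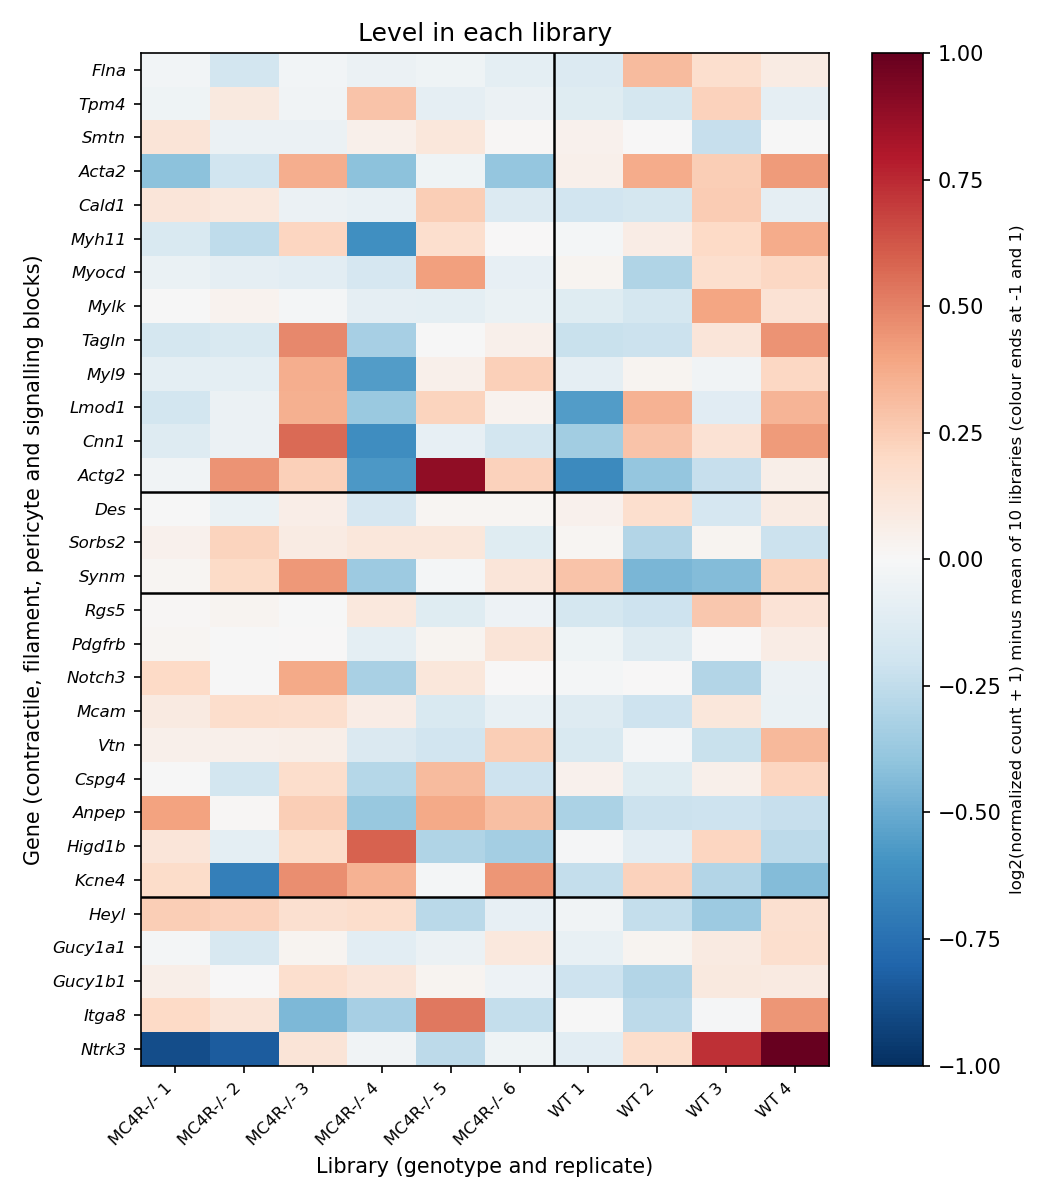
Level of each tested gene in each library, as log2(normalized count + 1) minus the gene's mean over the 10 libraries (colour), with MC4R-/- libraries left of WT and lines between roles. MC4R-/- replicate 4 is the lowest MC4R-/- library for 8 of 13 contractile genes, and MC4R-/- replicate 3 the highest for 7 of 13.

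Of the intermediate filament and Z-disc genes, none of 3 was called by limma, and 1 had an unadjusted p under 0.05 by limma and by edgeR, Sorbs2. Des codes for desmin, which links the myofibrils of muscle. It had 11176, 10696, 11722, 9980.0, 11339.8 and 11347 in the MC4R-/- libraries, against 11504, 12588, 9957 and 11856 in the WT libraries, and the groups overlapped (log2 fold change -0.05 ± 0.06, limma adjusted p 0.852). Sorbs2, an adaptor at the cardiac Z-disc, had 3369, 3807, 3459, 3534, 3532 and 3003 in the MC4R-/- libraries, against 3311, 2672, 3323 and 2815 in the WT libraries. All MC4R-/- libraries but replicate 6 lay above the highest WT library. Its log2 fold change was 0.19 ± 0.07 (95% interval 1.03-fold to 1.27-fold, limma adjusted p 0.346). Synm, synemin, a filament protein that binds desmin, had 119, 135, 159, 91.5, 116 and 128 in the MC4R-/- libraries, against 144, 85.8, 87.2 and 138 in the WT libraries. The groups overlapped, with a difference of 0.16 ± 0.16 in log2 units (limma adjusted p 0.819).

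Among the pericyte genes none of 9 tested was called by limma, 7 had the higher mean in MC4R-/- and 2 the lower, and the median log2 fold change was 0.07. This median was 0.04 without MC4R-/- replicate 3, 0.13 without MC4R-/- replicate 5, 0.14 without MC4R-/- replicate 6 and 0.12 without WT replicate 4, and 0.11 by edgeR and by DESeq2. Anpep had an unadjusted p under 0.05 by limma, and 1 of the 9 genes did so by edgeR. Rgs5, a regulator of G protein signalling and the most abundant of these genes, had 5224, 5281, 5174, 5572, 4753 and 5012 in the MC4R-/- libraries, against 4581, 4488, 6253 and 5691 in the WT libraries. WT spread more widely than MC4R-/-, since WT replicates 1 and 2 were below and replicates 3 and 4 above every MC4R-/- library. The means were 5169 ± 274 in MC4R-/- and 5253 ± 862 in WT, and the 95% interval of the fold change was 0.886-fold to 1.11-fold (limma adjusted p 0.985). Pdgfrb (chromosome 18 from 61045127 to 61085067), the PDGF receptor that pericytes depend on, had 658, 648, 653, 608, 663 and 712 in the MC4R-/- libraries, against 631, 595, 652 and 686 in the WT libraries. Its coefficient of variation over the 10 libraries was 5.26%, the smallest on the list, and its fold change had a 95% interval of 0.927-fold to 1.13-fold (limma adjusted p 0.918).

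Anpep (chromosome 7 from 79821803 to 79848210), the aminopeptidase CD13, which fibroblasts and myeloid cells also carry, had 102, 77.5, 91.5, 59.0, 100.3 and 94.9 in the MC4R-/- libraries, against 61.6, 65.9, 66.5 and 65.2 in the WT libraries. WT values were packed closely, 5 of 6 MC4R-/- libraries lay above all of them, and MC4R-/- replicate 4 lay below. The means were 87.5 ± 16.4 in MC4R-/- and 64.8 ± 2.2 in WT, and the log2 fold change was 0.40 ± 0.15 (95% interval 1.08-fold to 1.63-fold). The unadjusted limma p was 0.00986 and the Benjamini-Hochberg adjusted p 0.299. Fibroblast markers were also higher in MC4R-/-. All 12 had the higher mean there and 2 were called by limma (Lum and Mfap5), with 0.287% of all genes called higher. By edgeR 1 of the 12 was called and by DESeq2 2, against 0.342% and 0.835% of all tested genes. At an unadjusted p under 0.05 there were 7 of the 12 by limma and 8 by edgeR, against 9.6% and 10.5% of all genes. Lum, a collagen-binding proteoglycan, averaged 484 ± 38.3 in MC4R-/- and 333 ± 67.4 in WT (limma adjusted p 0.0112). The 12 markers summed to 15634 to 18652 in MC4R-/- and 13959 to 16692 in WT. Of the macrophage markers 7 of 8 had the higher mean in MC4R-/-, and none was called by limma and 2 by DESeq2. At an unadjusted p under 0.05 there were 5 of the 8 by limma and 5 by edgeR. The shares of all tested genes are those given beside the fibroblast markers. Macrophage marker sums were 1664 to 1992 in MC4R-/- and 1267 to 1597 in WT. None of the 12 or 8 markers was at 0 over either group, and their part in the Anpep values was not tested.

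Notch3, the Notch receptor of mural cells, had 472, 408, 534, 326, 443 and 410.1 in the MC4R-/- libraries, against 404, 412, 334 and 394 in the WT libraries, with the lowest and the highest value both in MC4R-/- (log2 fold change 0.15 ± 0.10, limma adjusted p 0.7). Mcam, the adhesion molecule CD146, had 401, 428, 424, 399, 339 and 359.6 in the MC4R-/- libraries, against 346, 327, 409.8 and 361 in the WT libraries, and the groups overlapped (log2 fold change 0.12 ± 0.09, limma adjusted p 0.715). Cspg4, the proteoglycan NG2, averaged 169 ± 28.6 in MC4R-/- and 177 ± 17.1 in WT. Vtn, vitronectin, averaged 187 ± 20.5 in MC4R-/- and 184 ± 33.1 in WT. Higd1b averaged 49.7 ± 12.9 in MC4R-/- and 46.6 ± 6.62 in WT, and Kcne4, a potassium channel subunit, averaged 23.3 ± 6.21 in MC4R-/- and 18.3 ± 4.15 in WT. For these 4 genes the difference between means was smaller than the SD within MC4R-/-.

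**Figure D5:**
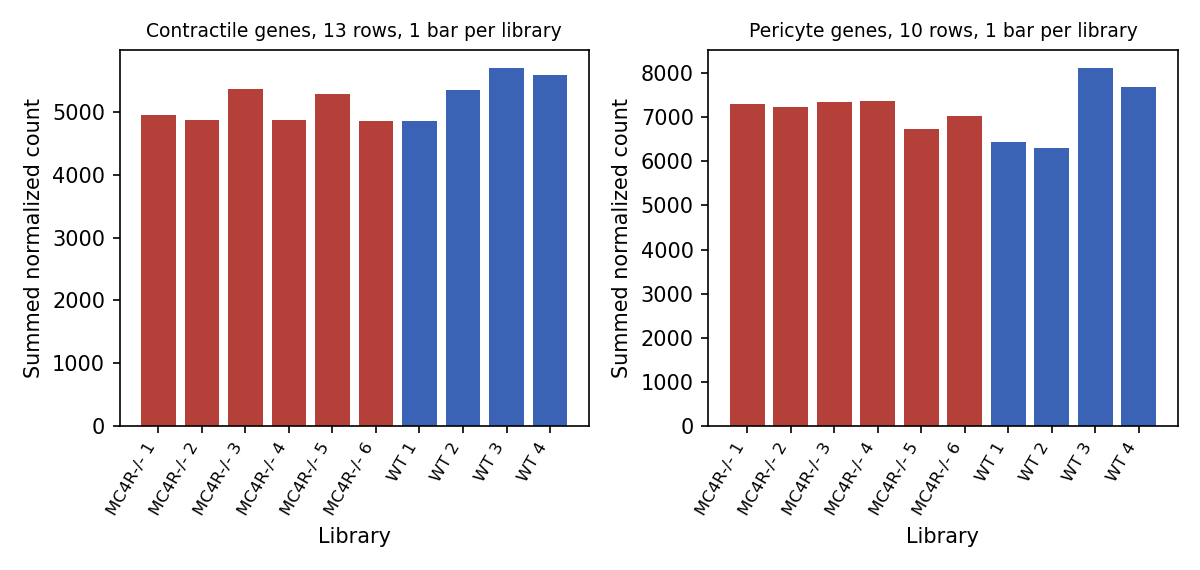
Summed normalized count of the 13 contractile rows (left panel) and the 10 pericyte rows (right panel) in each library, MC4R-/- left of WT, 1 bar per library. Contractile sums are 4864 to 5373 in MC4R-/- and 4857 to 5708 in WT, and pericyte sums are 6731 to 7370 in MC4R-/- and 6295 to 8122 in WT. Flna and Tpm4 are the largest parts of the contractile sums, and Rgs5 of the pericyte sums.

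The summed pericyte level averaged 7167 ± 247 in MC4R-/- and 7133 ± 909 in WT, and most of it was Rgs5. Its wider spread in WT follows the Rgs5 values given above. Endothelial markers, from the cells that pericytes cover, summed to 8702 to 10817 in MC4R-/- and 8874 to 10126 in WT. None of 12 was called by limma, none had an unadjusted p under 0.05 by limma or edgeR, and none was called by edgeR or DESeq2.

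Of the signalling genes none of 5 was called by limma, and 1 had an unadjusted p under 0.05 by limma and by edgeR, Ntrk3. Heyl, a transcription factor switched on by Notch, had 233, 230.3, 219, 221, 162 and 185 in the MC4R-/- libraries, against 191, 166, 152 and 219 in the WT libraries, and the groups overlapped (log2 fold change 0.19 ± 0.11, limma adjusted p 0.64). The nitric oxide receptor, soluble guanylate cyclase, is built from an alpha and a beta subunit, listed under the older names Gucy1a3 and Gucy1b3. Gucy1a1, the alpha subunit, had 188, 170.4, 193, 177, 182 and 205 in the MC4R-/- libraries, against 181, 194, 202 and 214 in the WT libraries, in a row that also joins Mir7010. Gucy1b1, the beta subunit, had 179, 172, 193, 187, 175 and 167 in the MC4R-/- libraries, against 149, 141, 184 and 183 in the WT libraries. The log2 fold changes of the alpha and beta subunits were -0.09 ± 0.09 and 0.13 ± 0.10, with limma adjusted p-values of 0.817 and 0.735, and the groups overlapped for both. Itga8, integrin alpha 8, averaged 35.2 ± 9.65 in MC4R-/- and 36.4 ± 7.89 in WT.

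Ntrk3 (chromosome 7 from 78179986 to 78581034), the receptor of neurotrophin 3, had 2.94, 3.10, 6.97, 6.10, 5.06 and 6.06 in the MC4R-/- libraries, against 5.77, 7.22, 11.1 and 15.0 in the WT libraries. These values rest on 3 to 17 reads per library. WT replicates 2, 3 and 4 lay above all MC4R-/- libraries, and WT replicate 1 lay among them. The log2 fold change was -0.81 ± 0.36, with a 95% interval of 0.342-fold to 0.957-fold, an unadjusted limma p of 0.0344 and an adjusted p of 0.462. Of 6 Schwann cell markers 2 had the higher mean in MC4R-/- and 4 the lower, and none was called by limma. At an unadjusted limma p under 0.05 there were 2, both lower, against 9.6% of all tested genes in either direction. The markers summed to 83.4 to 152 in MC4R-/- and 126 to 275 in WT. The 275 was WT replicate 2, and the other WT libraries had 126 to 173. None of the 6 markers was at 0 over either group, and their part in the Ntrk3 values was not tested.

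The 3 further gene lists given here, of other pericyte genes, Notch and PDGF genes, and nitric oxide and cGMP genes, gave the same count of calls by limma, edgeR and DESeq2, namely 0. Of 15 other pericyte genes 5 had the higher mean and 10 the lower, with 1 at an unadjusted p under 0.05 by limma and 1 by edgeR. Abcc9, a subunit of the potassium channel that pericytes carry and that cardiomyocytes share, averaged 2955 ± 225 in MC4R-/- and 3313 ± 346 in WT (limma adjusted p 0.456).

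Of 14 Notch and PDGF genes 8 had the higher mean and 6 the lower, and 1 had an unadjusted p under 0.05 by limma and 1 by edgeR. Pdgfra, the PDGF receptor of fibroblasts, averaged 404 ± 27.6 in MC4R-/- and 339 ± 34.6 in WT (limma adjusted p 0.229) and is also one of the fibroblast markers above. Its row also joins another gene symbol, as that of Gucy1a1 does. Of 10 genes of nitric oxide and cGMP signalling 4 had the higher mean and 6 the lower, with 1 at an unadjusted p under 0.05 by limma and 1 by edgeR. Vasp, a substrate of cGMP-dependent kinase that acts on actin in many cell types, had 186, 176, 197, 207, 201 and 174 in the MC4R-/- libraries, against 217, 283, 210.4 and 217 in the WT libraries. All MC4R-/- values lay below all WT values, as in 2.28% of all tested genes for either direction, and the log2 fold change was -0.28 ± 0.10 (limma adjusted p 0.283).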

How the data were processed

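The deposited table holds a signal per gene and library, which the values show to be read counts divided by a size factor of each library, since low values are whole numbers of reads, within 0.1, once divided by that factor. The submitters' processing notes name, among other tools, TopHat2 2.1.0, Cufflinks 2.2.1 and Cuffnorm 2.2.1.1 with build mm10; the gene annotation and strand setting are not given in the sources used here. Per the labels' protocols, a stranded poly(A) kit took 200 ng of RNA whose integrity number exceeded 7. Rows carry RefSeq accessions, of which 24107 were named, mostly from a GRCm38.p6 gene table. All 10 columns were used, and recovered depth was 4145033 to 6425785 reads per library.

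Genotype was tested with limma 3.58.1 in R 4.3.3 (trend and robust) on log2(normalized count + 1) for the 14611 genes with a mean of at least 1, two-sided, adjusted by Benjamini-Hochberg over all of them, without covariates. This scale understates the change of low genes. Alternatives were DESeq2 1.42.0 and edgeR 4.0.16 with its quasi-likelihood test, both on recovered reads, other pseudocounts, filters and scalings, no trend or robust step, a replicate block, and fits without single libraries. Transcript lengths are those of the longest matched GENCODE M21 transcript.

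The genes and lists were chosen with earlier results of these data known. Values in every library are given for the 3 genes with the smallest p and the 2 with the highest mean in each role, and of each other list at most 3 genes by p; the Myh11 plot panel was added after values were seen. Some items are not reported here.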

Additional observations from a re-analysis of the deposited data

Results flagged for a closer look

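Of 60 groups of values (30 genes in each genotype), 2 held a library far from the others, and chance alone flags about 1 in 20 groups. Cnn1, calponin, stood at 24.4 normalized counts in MC4R-/- replicate 3, against 10.2 to 15.5 in the other MC4R-/- libraries. Myocd, myocardin, stood at 386 in MC4R-/- replicate 5, against 259 to 278 in the other MC4R-/- libraries. MC4R-/- replicate 5 was also the library with summed atrial markers of 3155, against 539 to 943 in the other MC4R-/- libraries, and the part of this in the Myocd value was not tested.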

How the results depend on the processing

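No gene on the list was called under any of the 12 alternatives other than leaving out single libraries. In the 10 fits that left out 1 library each, 0 to 1 was called, the 1 being Acta2 without MC4R-/- replicate 3, and all genes called numbered 26 to 117, against 67 with all libraries. DESeq2 called 122 genes in all, the fit without WT replicate 2 and MC4R-/- replicate 5 called 168, and limma without trend and robust steps called 0, with 1290 at an unadjusted p under 0.05 (edgeR called 50). No sign of pairing by replicate number was seen. Same-numbered libraries had correlations of deviations from -0.28 to -0.07, against -0.23 to 0.39 for differently numbered ones. These values are too few to settle whether the numbers mark pairs. Under the replicate block over 8 libraries 52 genes were called, none of them on the list, and the pericyte median moved to 0.15, as it did over the same 8 libraries unblocked (0.15); the cause was not tested. Rgs5 turned to 0.0301 under the block, 0.0301 over those 8 libraries unblocked and 0.00198 scaled to total reads. Lmod1 turned to 0.00776 scaled to total reads and 0.0653 without WT replicate 2 and MC4R-/- replicate 5, where Cald1 turned to -0.00275 and Pdgfrb to -0.00264. Leaving out single libraries changed the sign of 9 genes, whose log2 fold changes ran from -0.19 to 0.11 (Lmod1), -0.18 to 0.0651 (Itga8), -0.16 to 0.0840 (Tagln), -0.12 to 0.0619 (Myl9), -0.0471 to 0.15 (Higd1b), -0.0814 to 0.0781 (Rgs5), -0.0420 to 0.14 (Vtn), -0.18 to 0.00986 (Mylk) and -0.15 to 0.0196 (Myocd). The other 21 kept their sign in all 10 of these fits. The least read genes were Actg2 (3 to 10 reads per library) and Ntrk3 (3 to 17), whose log2 fold changes ran from 0.30 to 0.64 and from -0.94 to -0.53 over the alternatives other than leaving out single libraries.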
